A study of Homo sapiens with 6 samples.

Results

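Cadherins, claudins and integrins are the membrane proteins by which epithelial cells hold on to each other and to the matrix. Their messenger RNA levels were compared between T47D cells kept in hypoxia and in normoxia. The genes were chosen by symbol and by a minimum mean count in these libraries. All genes were taken whose symbol is that of a cadherin (CDH), a claudin (CLDN), an integrin alpha or beta chain (ITGA, ITGB, ITGBL1), a desmocollin (DSC), a desmoglein (DSG), occludin (OCLN), a zonula occludens (ZO) protein (TJP) or EPCAM, and whose count averaged at least 10 over the 6 libraries. The symbols matched 85 of the 27754 genes counted, and 48 of these reached the mean count of 10. They were 10 of 23 cadherins, 3 of 7 desmosomal cadherins, 12 of 24 claudins, all 4 of occludin and the ZO proteins, 11 of 17 integrin alpha chains, 7 of 9 integrin beta chains, and EPCAM. Of the 48, 46 passed the filter on low counts and were tested. CLDN6 and CLDN11, with a mean count of 12 each, were not. Just under the mean count of 10 lay CDH5 with 9.67, ITGA11 with 9.17, ITGAX with 7.5 and CDH18 with 5.83. Just above it, after the untested claudins, lay CDH7 with 25.5 and CDH26 with 39.

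Classical cadherins such as E-cadherin form adherens junctions by binding the same cadherin on the next cell, and their tails hold catenins that reach the actin cytoskeleton. Desmosomal cadherins do the same in desmosomes, which are tied to keratin filaments through plakoglobin and desmoplakin. Claudins and occludin seal the space between epithelial cells at the tight junction, where the ZO proteins anchor them from the inside. Integrins are pairs of an alpha and a beta chain, and which ligand a cell binds (collagen, laminin, fibronectin or other cells) depends on which chains pair. In luminal breast epithelium E-cadherin and the claudins are abundant, and a shift from E-cadherin towards N-cadherin is a common measure of epithelial to mesenchymal transition (EMT).

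T47D cells are a line of luminal human breast carcinoma. Normoxia was 20% O2, under the usual conditions of culture, and hypoxia was 0.5% O2 for 48 h by the labels, with 3 libraries in each. The study's text gives another oxygen level for the hypoxic cells. No time is labelled for normoxia, for which the study's text gives 48 h. No genetic change or other agent is labelled in either group, and all cells were grown attached, in RPMI medium with serum. A single cell line in a plastic dish has no stroma or basement membrane beyond what it makes itself. Nothing in the labels says whether replicates were separate cultures, though a figure legend of the study describes its data as independent experiments. The p-values measure only the spread between these libraries. In such bulk samples, fewer cells of a type and less RNA per cell cannot be told apart.

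Library totals ran from 32989104 to 89883409 counts, the deepest being hypoxia replicate 3, and 3 counts came to between 0.0328 and 0.0969 counts-per-million (CPM, scaled throughout by edgeR's TMM factors), a floor that covers counting error only. The genes described here took between 0.310% and 0.377% of all counts. Luminal markers were high in all libraries, the 8 listed genes summing to between 12486 and 17208 CPM in normoxia and between 10003 and 13334 CPM in hypoxia. The sum was lower in hypoxia in each numbered pair. Of the 8 genes 3 were lower and 0 higher, beside 29.1% and 30.4% of all genes tested. ESR1, the estrogen receptor, was at 256 to 302 CPM in normoxia and 74.2 to 75.2 CPM in hypoxia. The part of these markers in the results on adhesion genes was not tested. Replicate 3 of each condition stood apart in mesenchymal markers. Normoxia replicates 1, 2 and 3 gave 7, 12 and 395 counts of VIM, the vimentin of mesenchymal cells, and the hypoxia replicates gave 35, 35 and 1001. Scaled for depth, VIM stood at 0.177, 0.322 and 12.8 CPM in normoxia and at 0.864, 0.956 and 10.9 CPM in hypoxia. CDH11, a cadherin of mesenchymal cells that fell below the mean count of 10, had 4 counts in normoxia replicate 3, 16 in hypoxia replicate 3 and none elsewhere. Counts of calls are therefore also given without replicate 3. Endothelial markers stayed at or under 0.437 CPM as a sum of 7 genes. The fibroblast list was almost all COL1A1, at 83.9 to 95.1 CPM in normoxia and 76.9 to 99.1 CPM in hypoxia, with PDGFRA at 0 in all libraries. Of its 2 tested genes 1 was higher in hypoxia. PDGFRB had 0, 0 and 3 counts in normoxia and 14, 18 and 28 in hypoxia.

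Adhesion genes rose in hypoxia more often than they fell. In edgeR's quasi-likelihood test, with a threshold of 0.05 on the adjusted p, 21 of the 46 tested (45.7%) were higher in hypoxia, 7 (15.2%) were lower and 18 did not pass. Of all 15657 genes tested, 59.5% passed, with 30.4% higher and 29.1% lower. Each of the 28 genes that passed had hypoxia libraries entirely above, or entirely below, the normoxia libraries. The same held for ITGA6 and TJP1, which did not pass. The share of all genes tested that separated in this way was not computed, so the separation cannot be read as particular to these genes. The median log2-fold change (hypoxia over normoxia) was 0.30 over the 46 genes and 0.03 over all genes tested. Of the 46 genes, 11 rose at least 2-fold, beside 15.2% of all genes tested. As a share of the genes that rose this was 11 of 21 members and 2373 of 4765 genes in all, which is close to the same. CDH15, DSC1 and ITGAM are among both the 21 and the 11. They reached the mean count of 10 only through their hypoxia libraries, so the rule itself favoured an increase in them. The largest decrease, that of CLDN1, was -0.90 on the log2 scale and no member fell 2-fold, beside 4.91% of all genes. Without replicate 3, 22 of the same 46 genes were higher and 13 lower, beside 36.4% and 34.8% of all 15803 genes tested. The test did not use the replicate numbers. With the replicate number as a block, 24 members were higher and 10 lower, beside 36.6% and 35.2% of all genes tested. Upper-quartile scaling moved the median over all genes to 0.19, and that of the members to 0.45. CDH1, EPCAM, ITGA6, ITGAV and ITGB1 then counted as higher and CDH19 no longer passed, which left 26 members higher and 6 lower, beside 38.1% and 21.0% of all genes tested.

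The counts and medians by family are given beside the 30.4% higher, 29.1% lower and median of 0.03 over all genes tested. Among integrin alpha chains 7 of 11 were higher and 1 lower, with a median log2-fold change of 0.70. Among beta chains 3 of 7 were higher and 1 lower, with a median of 0.75. All 3 desmosomal cadherins were higher (median 0.76), as were 4 of 10 cadherins, with 1 lower (median 0.36). Of the 10 claudins tested 3 were higher and 2 lower (30% and 20%, with a median of -0.04), near the share of all genes for increases. These counts describe the members, and no test of one family against another was made. Among the increases counted are DSC1 (desmosomal cadherins), CDH15 (cadherins) and ITGAM (alpha chains). These genes reached the mean count of 10 only through their hypoxia libraries, so the rule favoured an increase in them. Without replicate 3, the counts higher and lower became 6 and 1 for alpha chains, 4 and 2 for beta chains, 3 and 4 for claudins over the same 10 genes, and 5 and 3 for cadherins.

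**Figure D1:**
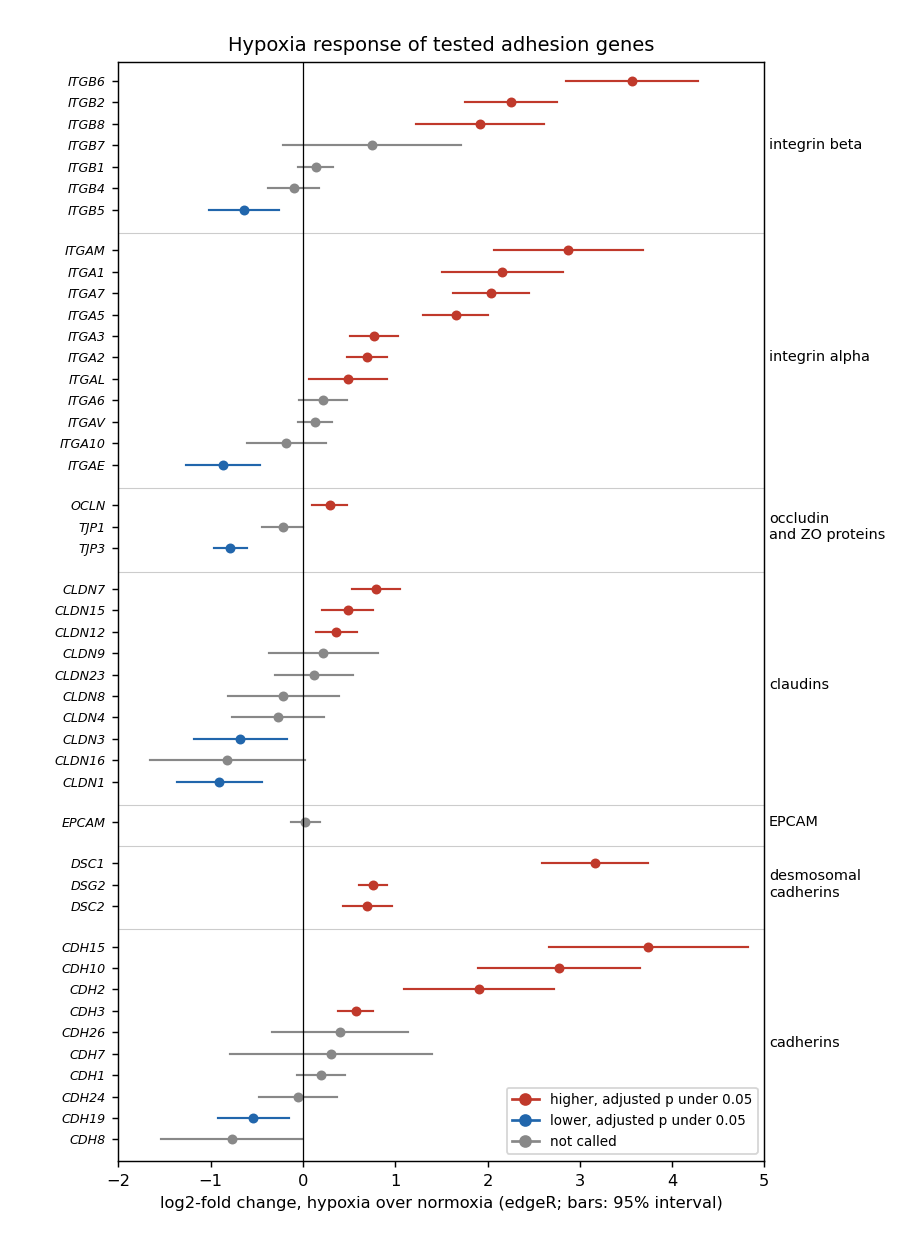
Log2-fold change of tested genes, hypoxia over normoxia, as a point with its 95% interval, grouped by family on the vertical axis; red points were higher and blue points lower at an adjusted p under 0.05. The 11 points beyond 1 to the right are all cadherins, a desmosomal cadherin or integrin chains, and the lowest point of the tight junction genes is CLDN1 at -0.90.

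The rule that chose the genes did not use sequence, so the letters just upstream of their start sites are shown first. RefSeq's promoter table (GRCh38.p14, 250 bases before to 50 bases after the start) held a window for 34 of the 48 members, and each was found unchanged in GRCh37. Where a symbol had several windows, the first was used. The start sites furthest from the first counted exon lay at -97511 bases for CLDN16, -14113 for ITGB5 and 1018 for CLDN15. Windows were searched on both strands for ACGTG and GCGTG, the letters that hypoxia-inducible factors bind, and for CACCTG, which reads CAGGTG from the other strand, the E-box read by SNAI and ZEB repressors. The following 30-base stretches, in GRCh37 coordinates and in the direction of the gene, lie before the first counted exon of genes that passed the test, with the matched letters in capitals. The first 3 hold the E-box, the next 5 hold GCGTG, and the last 2 hold ACGTG.
ITGB6, chr2:161056836-161056865, minus strand: ttggtgattgtaCACCTGccttccttataa
DSG2, chr18:29077896-29077925, plus strand: acgtcacggtccCAGGTGcgagtgcgagcg
DSC2, chr18:28682523-28682552, minus strand: tcaactttctgtCAGGTGggcctcaggcag
ITGA5, chr12:54813163-54813192, minus strand: gcgcccccccccCACGCcccttaggggtgg
ITGB8, chr7:20370365-20370394, plus strand: ggcgctccggtaGCGTGgggaggtttccta
ITGA2, chr5:52285002-52285031, plus strand: gtgcggtgccccGCGTGtggacgagccgag
CLDN7, chr17:7166703-7166732, minus strand: cggaacagtgagGCGTGacagagtgcacag
CLDN1, chr3:190040361-190040390, minus strand: ccgggtggtcccCACGCcgccagccgcgcg
TJP3, chr19:3708279-3708308, plus strand: ccagttgctcccACGTGagggcaccttgcg
CLDN3, chr7:73184685-73184714, minus strand: ggaggcaggggcCACGTcactgtccttagg

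Neither of the hypoxia motifs was more common in the genes that rose than in promoters at large. ACGTG stood in 4 of the 34 windows (11.8%), against 21.6% of all 27305 windows of that length, and in 2 of the 6 windows of genes that fell, TJP3 and CLDN3, but in none of the 15 of genes that rose. In TJP3 the letters form CACGTG, which reads the same on both strands. The other hypoxia motif, GCGTG, stood in 14 of the 34 (41.2%, against 36.3% of all windows), 5 of them among the 15 genes that rose (33.3%). The E-box stood in 8 (23.5%, against 20.6%), 4 of them among the 15 that rose (26.7%), namely ITGB6, DSG2, DSC2 and OCLN. A match is a description of these letters, not of binding, and no window was given for CDH1, CDH3, CDH15, ITGB2 or ITGA7, among others.

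The cadherins of T47D cells were led by CDH1 in both conditions, while the members that rose most were cadherins of low level. CDH1 encodes E-cadherin (chr16:68771193-68869445, plus strand). It stood at 747, 748 and 605 CPM in normoxia replicates 1, 2 and 3 and at 863, 823 and 715 CPM in hypoxia replicates 1, 2 and 3. The hypoxia value was the higher in each numbered pair, but the groups overlapped. The log2-fold change was 0.19 ± 0.11 (± SE, as for every log2-fold change here; 95% interval -0.07 to 0.45; adjusted p = 0.174). CDH1 passed with the replicate number as a block (0.20; adjusted p = 0.00965) and without replicate 3 (0.18; adjusted p = 0.0116). Per kilobase of counted exon, CDH1 made up 80.8 ± 1.16% (SD, n = 3) of the summed cadherin level in normoxia and 73.7 ± 3.70% in hypoxia, as the sum itself went from 177 ± 18.4 to 222 ± 11.01 CPM per kilobase.

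CDH3, the neighbour of CDH1 on chromosome 16 and the gene of P-cadherin, which is typical of the basal and myoepithelial layer of the breast, was next in level and rose. Its values were 102, 103 and 87.9 CPM in normoxia and 143, 144 and 149 CPM in hypoxia, with no overlap and little spread within hypoxia. The log2-fold change was 0.57 ± 0.08 (adjusted p = 0.000851), and its share of the cadherin level went from 14.5 ± 0.31% to 17.3 ± 1.24%. Of the listed basal and myoepithelial markers, 3 of the 5 tested were higher in hypoxia, beside 30.4% of all genes tested. The 7 together summed to between 17.2 and 26.9 CPM in normoxia and between 31.3 and 37.2 CPM in hypoxia. KRT14 was at 0 to 1 counts in normoxia and 0 to 3 in hypoxia. The part of these markers in the CDH3 result was not tested.

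CDH10 rose from a low to a middling level. It encodes a type II cadherin best known from the nervous system (chr5:24487209-24645087, minus strand). Its values were 6.26, 3.33 and 10.2 CPM in normoxia replicates 1, 2 and 3 and 41.6, 33.4 and 59.2 CPM in hypoxia replicates 1, 2 and 3, so the lowest hypoxia library lay well above the highest normoxia library, and replicate 3 was the highest in each condition. This was a 6.86-fold increase (log2-fold change 2.78 ± 0.38; adjusted p = 0.000640). CDH10 went from 1.13 ± 0.70% to 5.92 ± 2.00% of the cadherin level and became the cadherin next in level after CDH3. In normoxia that place was held by CDH24, another type II cadherin, at 5.01 ± 0.0809 CPM per kilobase in normoxia and 4.80 ± 1.32 in hypoxia.

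CDH15, the M-cadherin of muscle precursor cells, had the largest fold change of all members (chr16:89238163-89261900, plus strand), from a level near the floor. It stood at 0.228, 0.161 and 0.0646 CPM in normoxia (9, 6 and 2 counts) and 1.90, 3.09 and 1.47 CPM in hypoxia, a 13.4-fold difference (log2-fold change 3.74 ± 0.46; 95% interval 2.67 to 4.82; adjusted p = 0.000420). The groups did not overlap, but CDH15 reached the mean count of 10 only through its hypoxia libraries. CDH2, the N-cadherin of mesenchymal and nerve cells, rose from 0.760, 0.457 and 0.258 CPM to 1.65, 2.10 and 1.89 CPM (log2-fold change 1.90 ± 0.35; adjusted p = 0.00245). Per kilobase, the ratio of CDH2 to CDH1 was 0.000752 ± 0.000332 in normoxia and 0.00261 ± 0.000437 in hypoxia, so N-cadherin transcripts remained a very small part of the total. Of the 10 genes of the mesenchymal marker list, 4 were higher in hypoxia, beside 30.4% of all genes tested. The list's sum went from between 268 and 279 CPM to between 372 and 434 CPM. Most of that sum was LGALS1, at 181 to 189 CPM in normoxia and 188 to 247 CPM in hypoxia. Normoxia replicate 3, the highest normoxia library in VIM, was the lowest in CDH2. The part of this list in the CDH2 result was not tested, and the CDH2 difference was 1.61 on the log2 scale without replicate 3.

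CDH19, a type II cadherin of the Schwann cell lineage, was the cadherin that fell, from 3.90, 3.57 and 3.17 CPM to 2.44, 2.51 and 2.38 CPM (log2-fold change -0.54 ± 0.17; adjusted p = 0.0239). It lost its call without normoxia replicate 1 (-0.47; adjusted p = 0.0920) and without hypoxia replicate 1 (0.0749) or 2 (0.0629). CDH8, another type II cadherin of the nervous system, had a log2-fold change of -0.77 ± 0.33 with an adjusted p of 0.0746, which became 0.0350 with the replicate block, 0.0269 without normoxia replicate 3 and 0.0219 without both replicates 3. Of the cadherins that did not pass, CDH26 (0.41 ± 0.32; 95% interval -0.33 to 1.14) and CDH7 (0.31 ± 0.48; -0.79 to 1.4) were both at or under 1.37 CPM in every library. CDH24 had a log2-fold change of -0.05 ± 0.18 (interval -0.48 to 0.37), but without replicate 3 of both conditions it was -0.30 (adjusted p = 0.0183), hypoxia replicate 3 being its highest library.

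**Figure D2:**
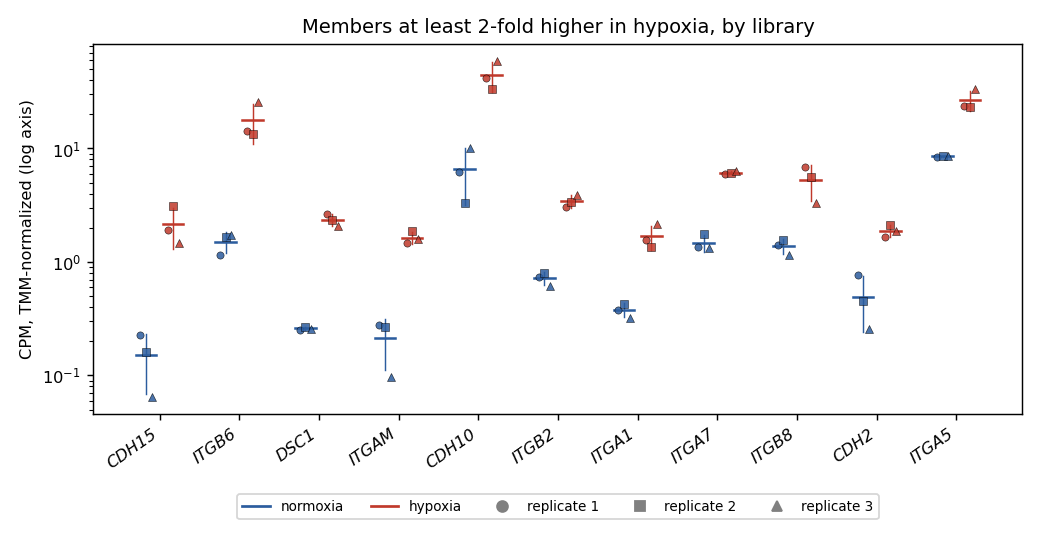
TMM-normalized CPM on a log axis for the 11 members at least 2-fold higher in hypoxia, one symbol per library (shape by replicate number), with the mean as a horizontal bar and the SD as a vertical line (n = 3 in each condition). In every gene shown the lowest hypoxia library lies above the highest normoxia library, and replicate 3 is the highest hypoxia library in CDH10, ITGB6, ITGB2, ITGA1, ITGA7 and ITGA5 but the lowest in CDH15, DSC1 and ITGB8.

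All 3 measurable desmosomal cadherins rose. Their genes lie in 1 cluster of 7 on chromosome 18 (28569331 to 29128970, 559.6 kb), in which DSC3, DSG1, DSG3 and DSG4, the isoforms of stratified epithelia, had at most 4 counts in any library. DSG2, the desmoglein of simple epithelia, was the main one. It stood at 141, 142 and 133 CPM in normoxia and 232, 235 and 236 CPM in hypoxia, the replicates of each condition lying close together (log2-fold change 0.76 ± 0.07; adjusted p = 0.000122). DSC2, its usual partner, stood at 37.9, 32.3 and 29.1 CPM and 58.9, 52.0 and 50.4 CPM (log2-fold change 0.70 ± 0.12; adjusted p = 0.00152). These rose by like amounts, and DSG2 kept 78.8 ± 1.81% of the family's level per kilobase in normoxia and 78.7 ± 1.57% in hypoxia. The family's sum went from 29.97 ± 1.57 to 50.7 ± 0.61 CPM per kilobase.

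DSC1, a desmocollin of the upper epidermis, rose 8.96-fold. Its values were 0.253, 0.269 and 0.258 CPM in normoxia and 2.67, 2.35 and 2.07 CPM in hypoxia (log2-fold change 3.16 ± 0.25; adjusted p = 7.86e-05). Again the groups were far apart. DSC1 had 10, 10 and 8 counts in normoxia, so it reached the mean count of 10 only through its hypoxia libraries. DSC1 went from 0.204 ± 0.0127% to 1.09 ± 0.127% of the family's level per kilobase and was still the least abundant of the 3. Exons of the antisense genes DSCAS and DSG2-AS1 overlap DSC1 and DSG2 by 255 and 171 bases, and because the strand setting of the counting is not stated, reads there could be assigned to either gene. Smaller antisense overlaps, of 38 to 113 bases, touch CLDN7, ITGA5, ITGA7, ITGB8 and TJP3.

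Of 19 tested adherens junction and desmosome partners, 6 were higher and 5 lower (31.6% and 26.3%, with a median log2-fold change of 0.09), shares near the 30.4% and 29.1% of all genes. DSP, the desmoplakin that ties desmosomes to keratin, rose from 830.1, 827 and 745 CPM to 2862, 2909 and 2854 CPM (log2-fold change 1.84 ± 0.08; adjusted p = 1.85e-05). Its change was larger than that of DSG2 or DSC2, and its 95% interval of 1.65 to 2.04 lay above theirs (0.60 to 0.91 and 0.43 to 0.97). NECTIN4, an adhesion receptor of adherens junctions, also rose (0.69 ± 0.08; adjusted p = 0.000369). NECTIN1, of the same family, fell from 119.6 ± 13.3 to 57.5 ± 13.3 CPM (-1.05 ± 0.17; adjusted p = 0.00122). EVPL, the plakin envoplakin, fell slightly (-0.29 ± 0.08; adjusted p = 0.0147). EPCAM, an epithelial adhesion molecule that binds claudins, was at 203 ± 7.94 and 206 ± 4.93 CPM, with a log2-fold change of 0.03 ± 0.07 and an interval of -0.13 to 0.19. It counted as higher only with upper-quartile scaling (0.19; adjusted p = 0.0391).

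The claudins exchanged rank. CLDN4, CLDN3, CLDN1 and CLDN7 held nearly all of the claudin level in both conditions. CLDN7 (chr17:7163222-7166512, minus strand), which seals the tight junction and also lies along the lateral membrane, rose from 122, 126 and 146 CPM in normoxia replicates 1, 2 and 3 to 207, 214 and 259.7 CPM in hypoxia replicates 1, 2 and 3. No hypoxia library came near the normoxia range, and the log2-fold change was 0.79 ± 0.11 (adjusted p = 0.000809). Per kilobase, CLDN7 went from 13.1 ± 0.70% of the claudin level to 26.8 ± 2.07%, with individual libraries at 12.5 to 13.8% and 25.0 to 29.1%.

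CLDN1 and CLDN3, which are barrier-forming claudins, fell. CLDN1 stood at 381, 328 and 238 CPM in normoxia and 176, 131 and 199 CPM in hypoxia (log2-fold change -0.90 ± 0.20; adjusted p = 0.00562). All hypoxia libraries were below all normoxia libraries, but normoxia replicate 3 was close to hypoxia replicate 3, and without these 2 libraries the change was -1.20. CLDN3 stood at 174, 165 and 263 CPM in normoxia and 114, 103 and 159 CPM in hypoxia (log2-fold change -0.68 ± 0.22; adjusted p = 0.0268). Replicate 3 was the highest in each condition, and hypoxia replicate 3 reached nearly to normoxia replicate 2. The CLDN3 call was lost without normoxia replicate 3 (-0.44; adjusted p = 0.0552), hypoxia replicate 1 (0.0864) or hypoxia replicate 2 (0.0853).

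CLDN4, the neighbour of CLDN3 on chromosome 7 and level with it per kilobase in normoxia (159 ± 39.2 against 158 ± 42.6 CPM per kilobase), shared the pattern of replicate 3 but did not pass. Its values were 253, 248 and 375 CPM in normoxia and 212, 199 and 314 CPM in hypoxia, lower in hypoxia within each numbered pair, with overlapping groups (log2-fold change -0.27 ± 0.21; 95% interval -0.77 to 0.22; adjusted p = 0.302). With the block the adjusted p was 0.00137, without hypoxia replicate 3 it was 0.0412 (log2-fold change -0.51), and without both replicates 3 it was 0.000578. As a share, CLDN4 was at 32.0 ± 3.31% in normoxia and 31.3 ± 2.15% in hypoxia, CLDN3 at 31.5 ± 3.98% and 23.4 ± 1.05%, and CLDN1 at 19.0 ± 6.16% and 11.7 ± 1.38%. The level of CLDN7 relative to CLDN3 went from 0.420 ± 0.0662 to 1.15 ± 0.137, so that CLDN7 was below CLDN3 in every normoxia library and above it in every hypoxia library. The summed claudin level was 494 ± 68.1 CPM per kilobase in normoxia and 418 ± 79.0 in hypoxia, and was lower in hypoxia in each numbered pair (465 and 386, 446 and 359, and 572 and 508 for replicates 1, 2 and 3). The groups overlapped, since hypoxia replicate 3 lay above normoxia replicates 1 and 2.

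**Figure D3:**
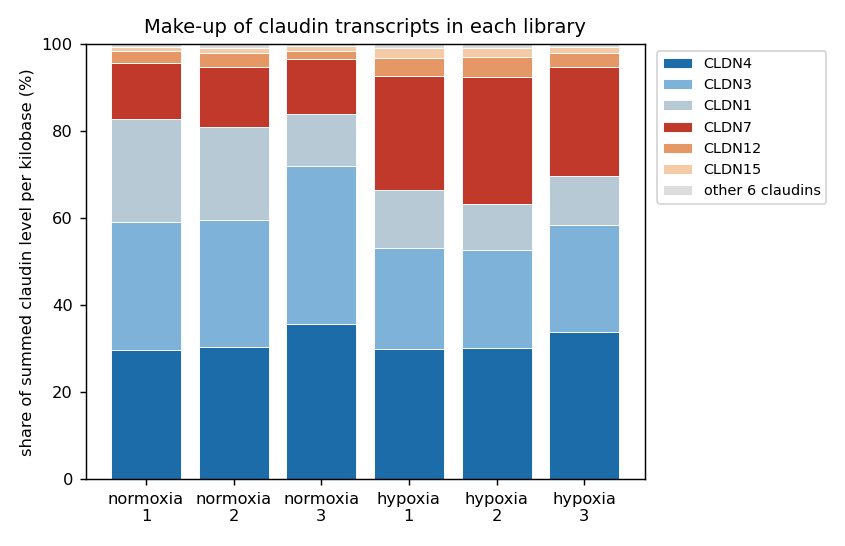
Share of the summed claudin level per kilobase of counted exon, in percent, held by each of the 6 most abundant claudins and by the other 6 together, with 1 stacked bar per library. The red band, CLDN7, spans 12.5 to 13.8% in the normoxia libraries and 25.0 to 29.1% in the hypoxia libraries, while the CLDN4 band spans 29.7 to 35.8% over all 6.

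Of the claudins of lower level, CLDN12 and CLDN15 passed. CLDN12 went from 46.5 ± 4.74 to 59.9 ± 2.58 CPM (log2-fold change 0.36 ± 0.09; adjusted p = 0.0116). For CLDN15, which forms a pore for cations, the values were 12.4 ± 1.33 and 17.3 ± 1.49 CPM (0.48 ± 0.12; adjusted p = 0.00998). Both were called whichever single library was left out, and lost their call when both replicates 1 were left out (adjusted p = 0.127 and 0.180). CLDN6, a claudin of embryonic tissue that neighbours CLDN9 on chromosome 16, had 6, 4 and 5 counts in normoxia and 18, 17 and 22 in hypoxia, and CLDN11, known from myelin, had 5, 5 and 3 counts and 15, 21 and 23 counts. Both reached the mean count of 10 only through their hypoxia libraries, and neither passed the filter on low counts. CLDN8, CLDN9, CLDN16 and CLDN23 did not pass, all at 3.21 CPM or less in every library. CLDN16, a claudin of the kidney tubule beside CLDN1 on chromosome 3, had a log2-fold change of -0.82 ± 0.36 (interval -1.66 to 0.02), and was lower without normoxia replicate 3 (-1.11; adjusted p = 0.0123) or both replicates 3 (-1.09; 0.00366).

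TJP3, the gene of the scaffold protein ZO-3, fell while occludin rose slightly. TJP3 stood at 124, 133 and 129.6 CPM in normoxia replicates 1, 2 and 3 and 69.5, 75.7 and 78.7 CPM in hypoxia replicates 1, 2 and 3 (log2-fold change -0.79 ± 0.08; adjusted p = 0.000179). The conditions were far apart and the replicates close together, with no library out of line. TJP1, the gene of ZO-1, had a log2-fold change of -0.22 ± 0.10 (interval -0.44 to 0.00; adjusted p = 0.0816), lower in hypoxia in each numbered pair, and counted as lower with the block (adjusted p = 0.00579) without normoxia replicate 3 (0.0452) and without both replicates 3 (0.0104). OCLN, the gene of occludin, went from 31.4, 29.6 and 28.0 CPM to 37.1, 36.9 and 34.7 CPM (log2-fold change 0.29 ± 0.08; adjusted p = 0.0175), and its adjusted p rose to between 0.0522 and 0.0705 when any of normoxia replicates 2 and 3 or hypoxia replicates 1 and 2 was left out. The level of TJP3 relative to OCLN per kilobase was 8.59 ± 0.71 in normoxia and 4.07 ± 0.39 in hypoxia.

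**Figure D4:**
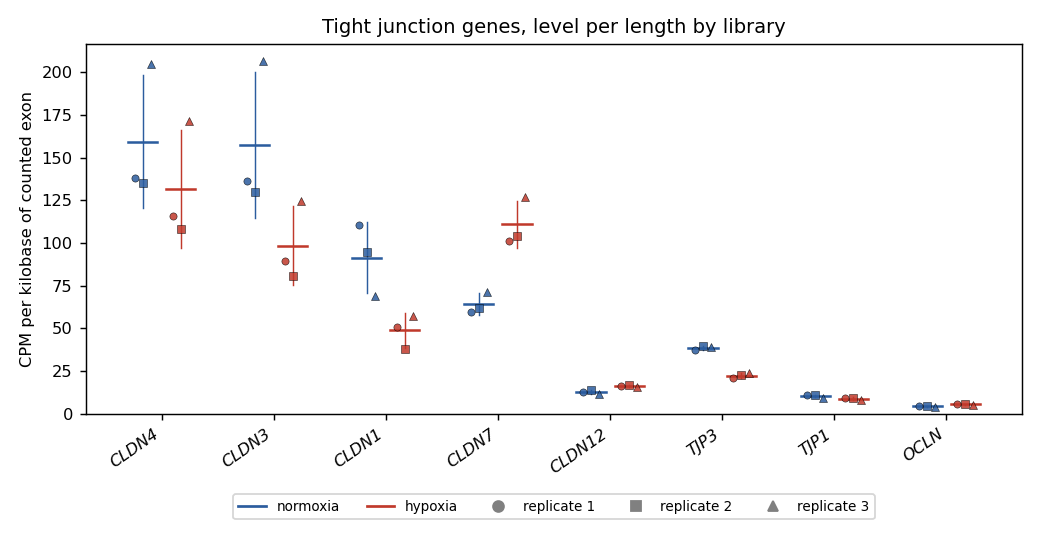
Level per kilobase of counted exon (TMM-normalized CPM per kilobase, linear axis from 0) of the 5 most abundant claudins, TJP3, TJP1 and occludin, one symbol per library with the mean as a horizontal bar and the SD as a vertical line (n = 3 in each condition). CLDN7 lies between 101 and 127 in hypoxia, above its normoxia libraries, CLDN1 and CLDN3 lie lower in hypoxia than in normoxia, and replicate 3 is the highest library of CLDN3 and CLDN4 in both conditions.

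Of 22 tested partners of the tight junction, 6 were higher and 5 lower (27.3% and 22.7%, with a median log2-fold change of 0.02), shares near the background of 30.4% and 29.1%. MAGI2, a scaffold, rose (1.47 ± 0.32; adjusted p = 0.00553), as did PARD3, which sets apical polarity (53.2 ± 2.69 to 106 ± 15.9 CPM; 1.00 ± 0.12; adjusted p = 0.000350). PARD6A, which binds PARD3 in the same polarity complex, fell from 23.1 ± 1.95 to 11.5 ± 2.84 CPM (-0.99 ± 0.17; adjusted p = 0.00193). MARVELD2, the tricellulin of contacts where several cells meet, fell as well (-0.91 ± 0.12; adjusted p = 0.000508).

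The integrins held the largest group of strong increases. Of the beta chains, ITGB1, the common partner of the collagen, laminin and fibronectin receptors, was the most abundant per kilobase (53.4 ± 1.59 CPM per kilobase in normoxia and 58.7 ± 5.26 in hypoxia), followed by ITGB4 (34.0 ± 1.60 and 31.7 ± 5.36) and ITGB5 (25.4 ± 0.292 and 16.3 ± 4.24), and no other beta chain passed 3.78 ± 1.45, the level of ITGB6 in hypoxia. ITGB6 (chr2:160956177-161056824, minus strand) pairs with alphaV only, in a receptor of epithelia that binds fibronectin and the latent form of TGF-beta. It stood at 1.14, 1.67 and 1.71 CPM in normoxia replicates 1, 2 and 3 and at 14.3, 13.3 and 25.6 CPM in hypoxia replicates 1, 2 and 3, an 11.9-fold increase (log2-fold change 3.57 ± 0.31; adjusted p = 0.000113). Hypoxia replicate 3 was the highest, and the lowest hypoxia library was still far above normoxia. ITGB8, whose alphaV receptor also binds latent TGF-beta, stood at 1.42, 1.56 and 1.16 CPM and 6.91, 5.6 and 3.30 CPM (log2-fold change 1.92 ± 0.30; adjusted p = 0.00115). Here hypoxia replicate 3 was the lowest of its group, though above all normoxia libraries.

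ITGB5, the beta chain of the alphaV vitronectin receptor, moved the other way. Its values were 112, 110.1 and 113 CPM in normoxia, with hardly any spread, and 63.8, 58.2 and 92.8 CPM in hypoxia, where replicate 3 came closest to normoxia (log2-fold change -0.64 ± 0.16; adjusted p = 0.0110). Without replicate 3 the change was -0.86, and the call was lost without replicate 1 (-0.56; adjusted p = 0.0942) or replicate 2 (-0.52; adjusted p = 0.0599). ITGB5 fell from 22.3 ± 0.38% to 14.3 ± 1.61% of the beta chain level per kilobase, as ITGB6 went from 0.28 ± 0.063% to 3.28 ± 0.76%. The level of ITGB6 relative to ITGB5 was 0.0126 ± 0.00267 in normoxia and 0.227 ± 0.0265 in hypoxia, so ITGB5 remained the more abundant in every library. ITGAV, the alpha chain that both share, was at 95.3 ± 1.43 and 104 ± 8.14 CPM (log2-fold change 0.13 ± 0.08; interval -0.05 to 0.31), and ITGB3, another of its partners, had no counts in normoxia and 2, 1 and 4 in hypoxia.

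Among the alpha chains that pair with beta1, members rose that serve receptors of fibronectin, of collagen and of laminin. ITGA5 (chr12:54789045-54813050, minus strand), the alpha chain of the main fibronectin receptor, stood at 8.41, 8.62 and 8.53 CPM in normoxia and 23.8, 23.3 and 33.2 CPM in hypoxia (log2-fold change 1.65 ± 0.15; adjusted p = 0.000145). The normoxia libraries were almost equal, and its level relative to ITGAV went from 0.152 ± 0.00310 to 0.433 ± 0.0587. ITGA2, for collagen, stood at 44.1, 43.6 and 36.3 CPM and 66.9, 68.7 and 65.7 CPM (log2-fold change 0.70 ± 0.09; adjusted p = 0.000608). ITGA1, its neighbour on chromosome 5 and also a collagen receptor chain, rose 4.48-fold from a level near the floor, 0.378 ± 0.0535 to 1.69 ± 0.405 CPM (2.16 ± 0.28; adjusted p = 0.000533), and it shares 113 bases of exon with PELO on the same strand. For the laminin receptors, ITGA3 stood at 42.9, 46.6 and 42.3 CPM and 67.7, 69.5 and 87.3 CPM (log2-fold change 0.77 ± 0.11; adjusted p = 0.000902), and ITGA7, best known from muscle, rose from 1.34, 1.77 and 1.32 CPM to 5.90, 6.12 and 6.30 CPM (log2-fold change 2.04 ± 0.18; adjusted p = 0.000117). In each of these 5 genes the groups did not overlap.

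The chains of other laminin and beta1 receptors did not pass. ITGB1 had a log2-fold change of 0.14 ± 0.08 (interval -0.06 to 0.33; adjusted p = 0.192). For the hemidesmosome pair of alpha6 and beta4, which fixes epithelial cells to the basement membrane, ITGA6 had 0.22 ± 0.11 (interval -0.04 to 0.48; adjusted p = 0.129, and 0.0387 with the block) and ITGB4 -0.10 ± 0.12 (interval -0.37 to 0.18; adjusted p = 0.506). The ITGB4 call depended on replicate 3 of hypoxia: ITGB4 was lower without hypoxia replicate 3 (-0.25; adjusted p = 0.0171) or both replicates 3 (-0.22; 0.00535), and its log2-fold change was 0.058 with upper-quartile scaling. ITGA10, a collagen receptor chain, had -0.18 ± 0.18 (interval -0.61 to 0.25).

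**Figure D5:**
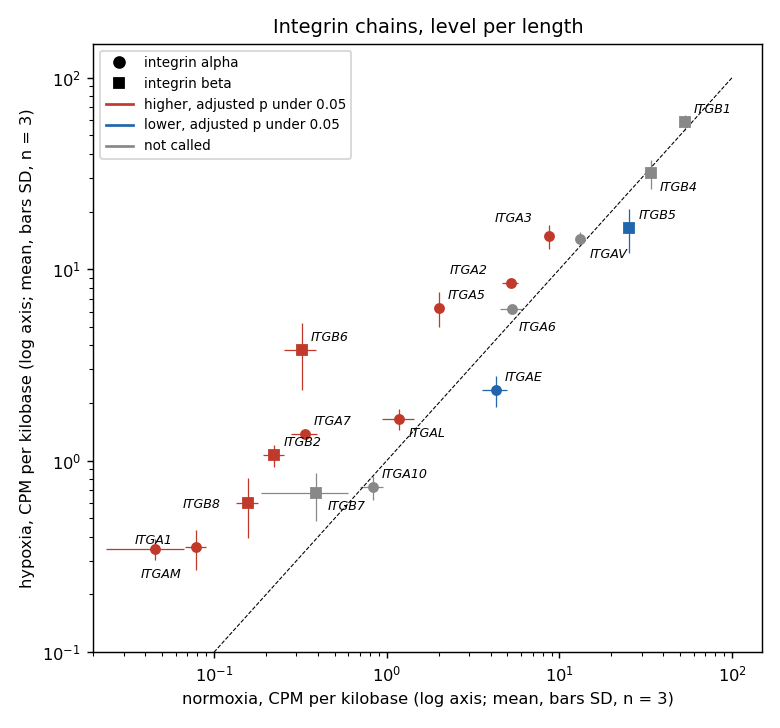
Level per kilobase of each integrin chain in hypoxia against normoxia (TMM-normalized CPM per kilobase, log axes), circles for alpha and squares for beta chains, with the mean and SD of 3 libraries in each direction and a dashed line at equal levels. The chains furthest above the line, among them ITGB6, ITGB2, ITGA1 and ITGAM, lie at low levels in normoxia, and ITGB5 and ITGAE lie below it.

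Integrin chains best known from leukocytes were also counted, at low levels. ITGB2 (chr21:46305869-46348788, minus strand), the beta chain that pairs with ITGAM, ITGAL, ITGAX and ITGAD, stood at 0.735, 0.806 and 0.614 CPM in normoxia and 3.04, 3.36 and 3.92 CPM in hypoxia (log2-fold change 2.25 ± 0.21; adjusted p = 0.000157). ITGAM, its partner in the receptor of myeloid cells, stood at 0.279, 0.269 and 0.0969 CPM and 1.46, 1.86 and 1.60 CPM (log2-fold change 2.88 ± 0.35; adjusted p = 0.000389). Both rose without overlap of the groups. ITGAM had 11, 10 and 3 counts in normoxia, so it reached the mean count of 10 only through its hypoxia libraries. ITGAL, the alpha chain of the lymphocyte receptor LFA-1, was at 6.15 ± 1.29 and 8.63 ± 1.10 CPM (0.49 ± 0.18; adjusted p = 0.0474), and its call was lost when any library but normoxia replicate 2 was left out (adjusted p between 0.0612 and 0.129) or both replicates 3 (0.26; 0.114). Exons of ITGB2 overlap the antisense gene ITGB2-AS1 by 236 bases.

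The leukocyte marker list moved with these chains. Its 9 genes summed to between 2.36 and 3.04 CPM in normoxia and between 8.52 and 10.1 CPM in hypoxia. Of the 3 tested 2 were higher, beside 30.4% of all genes tested. CD68, a lysosomal protein that is not limited to leukocytes, was at 1.00 to 1.67 CPM of it in normoxia and 6.10 to 7.98 CPM in hypoxia. PTPRC, the defining CD45 antigen, had no counts in normoxia and 4, 1 and 5 in hypoxia, and MS4A1 was at 0 in all libraries. Its part in the ITGB2 and ITGAM results was not tested.

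ITGAE, the alpha chain that binds E-cadherin when paired with beta7, fell. It stood at 14.7, 15.1 and 19.7 CPM in normoxia and 8.69, 7.54 and 10.8 CPM in hypoxia (log2-fold change -0.86 ± 0.17; adjusted p = 0.00365), with all hypoxia libraries below. ITGB7, its partner chain, was at 1.12 ± 0.586 and 1.93 ± 0.547 CPM and did not pass (0.75 ± 0.42; interval -0.21 to 1.72; adjusted p = 0.152), although it was higher in hypoxia in each numbered pair and counted as higher with the block (adjusted p = 0.0174) and without replicate 3 (0.0239).

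Among integrin ligands, mostly of the basement membrane and matrix, 9 of 16 tested genes were higher and 3 lower (median log2-fold change 0.45), beside 30.4% and 29.1% of all genes. The 9 include ICAM1, a ligand on the cell surface. LAMB3, a chain of the laminin that the alpha3 and alpha6 receptors bind, rose from 2.61, 2.63 and 5.43 CPM to 18.3, 16.6 and 30.9 CPM (log2-fold change 2.64 ± 0.35; adjusted p = 0.000570). MFGE8, a ligand of alphaV receptors, rose from 2.57 ± 0.160 to 11.3 ± 3.29 CPM (2.15 ± 0.22; adjusted p = 0.000208). LAMB1 (-0.44 ± 0.11; adjusted p = 0.00906) and LAMC1 (-0.33 ± 0.08; adjusted p = 0.0105), chains of the more widespread laminins, fell. In the list of integrin adaptors and signalling genes, 8 of 37 were higher and 12 lower (21.6% and 32.4%, with a median of -0.12), beside 30.4% and 29.1% of all genes. CD82, a tetraspanin that binds integrins, fell from 113, 119 and 152 CPM to 46.3, 48.6 and 63.6 CPM (log2-fold change -1.27 ± 0.16; adjusted p = 0.000424). FERMT3, the kindlin of blood cells, fell (-0.83 ± 0.17; adjusted p = 0.00380), while CIB1, which binds integrin tails (0.96 ± 0.14; adjusted p = 0.000765), and TNS1, a tensin of focal adhesions (0.88 ± 0.20; adjusted p = 0.00686), rose.

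Regulators and proteases of the adhesion genes were taken from lists as well. Of 22 regulators tested, transcription factors together with the splicing regulators ESRP1 and ESRP2, 8 were higher and 10 lower (36.4% and 45.5%). KLF4 (6.18 ± 0.941 to 22.0 ± 2.65 CPM; log2-fold change 1.83 ± 0.15; adjusted p = 9.4e-05) and ELF3 (73.8 ± 24.1 to 254 ± 4.39 CPM; 1.79 ± 0.21; adjusted p = 0.000310), both factors of epithelial differentiation, rose. GATA3, the luminal factor, fell from 994 ± 80.0 to 596 ± 22.6 CPM (-0.74 ± 0.09; adjusted p = 0.000320), and TWIST1, a factor of EMT, fell as well (-1.62 ± 0.25; adjusted p = 0.00115). These 4 had the largest changes within the limits used for naming. Of the rest of the list, GRHL2, OVOL2, ESRP2, EHF, ELF5, FOXA1, TFAP2C and TCF3 also fell. KLF5, KLF8, GRHL3, OVOL1, ESRP1 and TCF4 also rose. Of 10 proteases that can cut cadherins or claudins, 5 were higher and 1 lower. ADAM17, a sheddase (0.55 ± 0.09; adjusted p = 0.00129), and PRSS8, the prostasin of epithelia (0.53 ± 0.10; adjusted p = 0.00230), rose, and ADAM15 fell from 505 ± 81.2 to 308 ± 84.2 CPM (-0.71 ± 0.19; adjusted p = 0.0142). Over all 6 lists, 42 of 126 tested genes were higher and 36 lower (33.3% and 28.6%), close to the 30.4% and 29.1% of all genes.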

How the data were processed

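RNA sequencing of T47D cells gave 3 libraries from normoxia and 3 from hypoxia. The authors trimmed adapters (Skewer), aligned to GRCh37 (STAR), summarised reads over RefSeq genes (featureCounts) and deposited raw counts, 1 library per file. The submitters' processing notes name FastQC 0.11.5, STAR 2.5.2a and featureCounts 1.5.1. The libraries were stranded mRNA preparations. The labels and the study's methods name different RNA extraction kits, and neither the strandedness used in counting nor the handling of multi-mapping reads is given in the sources used here, so counts of overlapping or near-identical genes are uncertain.

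The analysis used edgeR 4.0.16 and limma 3.58.1 in R 4.3.3. Of the genes counted, 15657 passed filterByExpr (minimum count 10, minimum total 15). Each was given edgeR's quasi-likelihood test on TMM-scaled libraries in a model of condition alone, and p-values were adjusted over all of them by the Benjamini-Hochberg method, with calls at 0.05. Intervals are 95% intervals of that fit. Levels of different genes were compared only as CPM per kilobase of the exon length in the deposited files. Depth ran from 32989104 to 89883409 counts, and the precision of a value near the floor of 3 counts is set by counting. The scripts were tested on simulated data.

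Same-numbered libraries deviated together from their condition means (correlation across genes of 0.426, 0.495 and 0.624 for numbers 1, 2 and 3). Replicate numbers 1 to 3 come from the labels of both conditions, and the study's methods call the samples paired. The main fit did not use these pairs, so its errors, intervals and calls include the spread between replicate numbers. An alternative fit took the numbers as pairs, with the replicate number as a block, and is given where it changed a call. The coefficient of variation between libraries that edgeR estimated was 0.141 in the main fit and 0.0751 with the block.

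Alternatives were edgeR's exact test (the test of the study's methods), DESeq2 1.42.0, RLE and upper-quartile scaling, no filter, the block, leaving out every library and every replicate number in turn, a mean count of at least 100, at least a 2-fold change, and TPM scaling of levels. The members and lists were chosen with earlier results of these data known. Named in each family were up to 3 genes that rose most and up to 3 that fell most, of those past the threshold at a mean count of at least 100, the 2 highest levels, a set of common chains, the genes near the mean count of 10, and those whose call or sign turned without replicate 3. From each partner list the 2 genes that rose and the 2 that fell most were named by the same limits, and other members were named to account for the whole family. The values of 1 member of the occludin and ZO family are not reported here, and it is left out of the plots, but the counts over all members include it. Marker lists covered luminal, mesenchymal, basal or myoepithelial, fibroblast, leukocyte and endothelial cells.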

Additional observations from a re-analysis of the deposited data

How the results depend on the processing

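Of the 28 members that passed, 21 had the same call in all 15 alternative fits. The others were CDH19, CLDN3, CLDN12, CLDN15, ITGAL, ITGB5 and OCLN, and no member that passed changed sign. DESeq2, edgeR's exact test and RLE scaling each gave 21 members higher and 7 lower. Upper-quartile scaling gave 26 and 6, and moved the median over all genes to 0.19. With it, 64.5% of all called genes were higher, against 51.1%, cadherins lower went to 0 and partner genes lower to 23. With the replicate block, 24 members were higher and 10 lower, cadherins lower going to 2. Calls rose among all genes tested as well, to 36.6% higher and 35.2% lower. The added calls were CDH1, CDH8, CLDN4, ITGA6, ITGB7 and TJP1, and the block changed no other member's call. Without the filter on low counts, 5 claudins were higher, CLDN6 and CLDN11, which reached a mean count of 10 only through hypoxia, being added to the genes tested. At a mean count of at least 100, 2 cadherins were higher.

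Asking for at least a 2-fold change left 11 members higher (1 desmosomal cadherin, 4 integrin alpha chains, 0 claudins and 0 of occludin and the ZO proteins). It left 0 members lower, and so 0 in each family with lower members (cadherins, claudins, integrin alpha, integrin beta, and occludin and the ZO proteins). Without the fold limit, edgeR's quasi-likelihood test called 7 members lower.

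With libraries or replicate numbers left out, genes higher ran from 2648 to 5751 and genes lower from 2191 to 5506, each lowest without replicate 1 and highest without replicate 3. Members lower ran from 4 to 13, claudins higher from 1 to 5, claudins lower from 1 to 4, occludin and ZO genes higher from 0 to 1, cadherins lower from 0 to 3 and integrin beta chains lower from 0 to 2. Partner genes higher ran from 22 to 51 and partner genes lower from 12 to 47. These fits used fewer libraries, and the cause of the differences was not tested.

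Signs that turned belonged to genes that did not pass. With upper-quartile scaling the log2-fold change of CDH24 became 0.097 and that of ITGB4 0.058. With libraries or replicate numbers left out, CDH24 ran from -0.30 to 0.10, EPCAM from -0.012 to 0.066, CDH7 from -0.13 to 0.84, CLDN23 from -0.049 to 0.27, CLDN9 from -0.0031 to 0.42 and ITGA10 from -0.38 to 0.020. For members at a few counts, such as CDH15, CLDN6 and CLDN11, depth limits the size of a change.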

Other observations

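Among the genes whose counts fell below the mean of 10, some had hypoxia libraries that all lay above normoxia. ITGAX, a leukocyte alpha chain that follows ITGAM in a cluster on chromosome 16 (31271288 to 31437826, 166.5 kb), had 0, 0 and 1 counts in the normoxia libraries and 15, 15 and 14 in those from hypoxia. ITGAD, the last of that cluster, had 1, 0 and 0 counts and 4, 4 and 5 counts. ITGA11, a collagen receptor chain of mesenchymal cells, had 0, 3 and 0 counts in normoxia and 13, 18 and 21 in hypoxia. CDH5, the cadherin of endothelial cells, had 0, 0 and 8 counts and 12, 6 and 32 counts, so its groups overlapped. CLDN25 went the other way, with 3, 5 and 14 counts in normoxia and 0, 1 and 1 in hypoxia. These genes were chosen after their values were seen and were not tested.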
